A study of Homo sapiens with 6 samples.

Results

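The human mitochondrial genome is a small circle of DNA kept in many copies in each cell, and it holds 37 genes. The count table has 58735 genes, and the members described here are the 37 rows placed on the chromosome MT: 13 protein-coding genes, 2 ribosomal RNA genes and 22 transfer RNA genes. The other 58698 genes are on nuclear chromosomes or scaffolds. The cells were NCI-N87, an established human gastric cancer line. In 3 libraries the cells carried the plasmid PLVX-IRES-Puro with EGLN3, and in 3 control libraries they carried it empty, so the cells of all 6 libraries had the vector and had been through puromycin. EGLN3 is an oxygen-dependent prolyl hydroxylase. Cells were kept 1 day with plasmid (5 days according to the label of EGLN3 replicate 3) and then 7 days in puromycin. The labels do not say that replicates were separate cultures, so p-values speak only of how these libraries vary, and that variation may be technical.

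Mitochondrial DNA is transcribed from both strands into long precursors that run through many genes. The transfer RNAs punctuate these precursors, and their excision frees most messengers and both ribosomal RNAs. The 13 proteins are core subunits of 4 complexes of oxidative phosphorylation: the MT-ND genes code for complex I, MT-CYB for complex III, MT-CO1, MT-CO2 and MT-CO3 for complex IV (cytochrome c oxidase), and MT-ATP6 and MT-ATP8 for ATP synthase. MT-RNR1 and MT-RNR2 are the RNAs of the small and large mitochondrial ribosomal subunits. Of the 37 genes, 28 are on the plus strand of the table, which the heavy strand templates, and 9 are on the minus strand, namely MT-ND6 and 8 transfer RNAs.

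Library totals ran from 15157265 to 16767383 counts. The 8 epithelial marker genes were all detected, with a summed level between 34436 and 54949 CPM. Single epithelial markers ran from 0.187 to 23314 CPM in a library, so the sum rests on the high ones. The lowest value was below the highest single fibroblast, blood and endothelial marker (5.15, 3.89 and 1.16 CPM). Fibroblast, blood and endothelial markers summed to at most 5.21, 3.89 and 1.22 CPM in any library, and the fibroblast markers COL1A2 and LUM had no count. EGLN3 itself was at 0.582, 0.702 and 0.565 CPM in controls, and at 481.4, 1640 and 1717 CPM with EGLN3. CPM here are read counts scaled to a common library size, with a TMM factor for each library. Series of 3 values are replicates 1, 2 and 3 in that order. All 37 members had a length equal to that of their GENCODE 29 transcript on GRCh38.

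Neighbouring mitochondrial genes can share bases, which bears on what a count per gene means. The coding sequences of MT-ATP8 (MT:8366-8572) and MT-ATP6 (MT:8527-9207) overlap by 46 bases on the plus strand. Those of MT-ND4L (MT:10470-10766) and MT-ND4 (MT:10760-12137) overlap by 7. The GENCODE 29 sequences below are shown because the levels of these 4 genes behave unequally in the data; capitals mark the shared bases. The first line is all of MT-ATP8, the second the start of MT-ATP6, the third the end of MT-ND4L and the fourth the start of MT-ND4.
MT-ATP8: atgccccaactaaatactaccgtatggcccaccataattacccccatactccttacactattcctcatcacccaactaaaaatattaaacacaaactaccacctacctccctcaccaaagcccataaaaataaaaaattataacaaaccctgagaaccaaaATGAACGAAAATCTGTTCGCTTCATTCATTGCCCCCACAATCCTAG
MT-ATP6: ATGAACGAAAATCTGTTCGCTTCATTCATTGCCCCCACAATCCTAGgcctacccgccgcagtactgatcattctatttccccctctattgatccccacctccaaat
MT-ND4L: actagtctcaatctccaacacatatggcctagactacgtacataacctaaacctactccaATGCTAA
MT-ND4: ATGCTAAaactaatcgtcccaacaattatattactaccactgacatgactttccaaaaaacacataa

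Cytochrome c oxidase messengers were the most abundant members. MT-CO1 (ENSG00000198804, MT:5904-7445) had 14989, 15436 and 18823 CPM in controls, and 20574, 16169 and 16144 CPM with EGLN3. Control replicate 3 and EGLN3 replicate 1 were the high libraries, and the groups overlapped. Together MT-CO1, MT-CO2 and MT-CO3 made up between 54.2% and 57.4% of the protein-coding mitochondrial counts of a library. Per kilobase of gene length, MT-CO1 stood at 11039 ± 1421 CPM per kb, MT-CO3 at 8592 ± 2112 and MT-CO2 at 8178 ± 2361 (mean and SD over all libraries, n = 6). MT-CO1 was above MT-CO3, and MT-CO3 above MT-CO2, in 6 of 6 libraries, although the ranges of their 6 values overlapped.

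**Figure D1:**
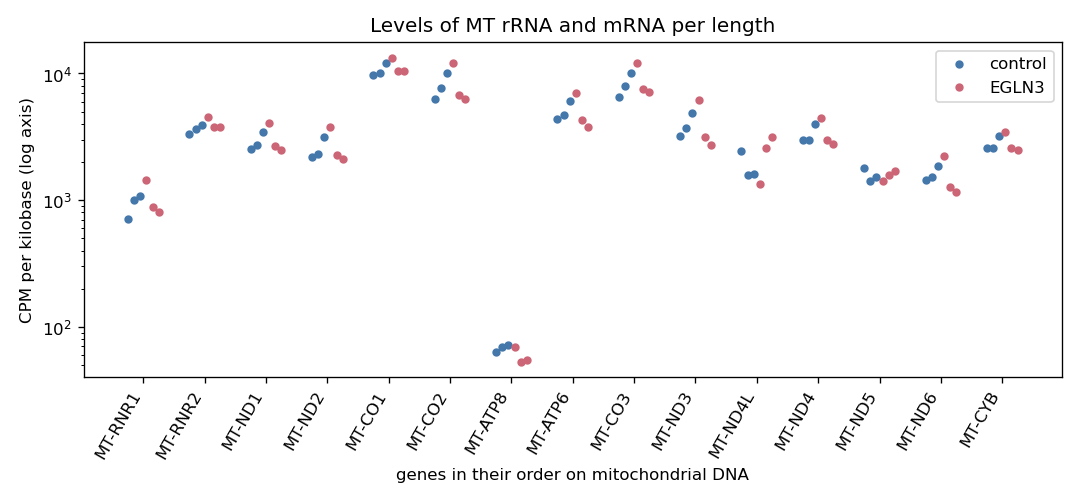
CPM per kilobase (vertical log axis) of the 2 ribosomal RNA and 13 protein-coding genes in their order on mitochondrial DNA, with 1 point per library, control in blue and EGLN3 in red. MT-CO1, MT-CO3 and MT-CO2 are highest, MT-ATP8 stands apart at 63.5 CPM per kb, and the groups overlap at each gene.

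Below them came MT-ATP6, the proton channel subunit of ATP synthase, at 5035 ± 1214 CPM per kb, and MT-ND3 at 3976 ± 1323. The complex I genes MT-ND4, MT-ND1 and MT-ND2 were at 3358 ± 680.3, 2987 ± 629.6 and 2637 ± 666.3 CPM per kb, with MT-CYB, the cytochrome b of complex III, between the last 2 of them at 2819 ± 415.8. MT-ND4L was at 2117 ± 713.9, MT-ND6 at 1576 ± 394.8 and MT-ND5 at 1572 ± 154.1 CPM per kb (SD over 6 libraries). In this order MT-ND6 and MT-ND5 did not differ beyond their spread, each being the higher in 3 of 6 libraries, and neither did MT-ND2 and MT-ND4L. Apart from MT-ATP8 the highest and lowest messengers differed 7.02-fold per length.

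MT-ATP8 was far lower than MT-ATP6, although both are read from 1 messenger. It held 225, 224 and 238 counts in controls and 217, 185 and 181 with EGLN3, against 51413, 50220 and 65657 and 71953, 49333 and 41416 for MT-ATP6. Per length, MT-ATP8 was between 0.00992 and 0.0147 times MT-ATP6. Only 161 of its 207 bases lie outside the overlap shown in capitals above. The sources used here do not state whether reads that touch 2 genes were dropped, and their part in this ratio was not tested.

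MT-ND4L and MT-ND4 share a messenger too, yet their levels had opposite extremes among the EGLN3 libraries. MT-ND4L, a small membrane subunit of complex I, had 729.9, 466.6 and 476.2 CPM in controls and 397.4, 772.7 and 930.1 CPM with EGLN3. MT-ND4, another membrane subunit, had 4091, 4143 and 5481 CPM in controls and 6118, 4118 and 3814 CPM with EGLN3. EGLN3 replicate 1 was thus the lowest library for MT-ND4L and the highest for MT-ND4, and EGLN3 replicate 3 the reverse. The ratio of MT-ND4L to MT-ND4 counts was 0.178, 0.113 and 0.0869 in controls and 0.065, 0.188 and 0.244 with EGLN3, a 3.75-fold range. The groups overlapped, and the mean log2 ratio with EGLN3 exceeded that of controls by 0.26 (exact permutation test, two-sided, p = 0.7, n = 3 each).

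MT-ND5, the longest messenger, was the other gene that ran against the rest. It had 3251, 2563 and 2766 CPM in controls and 2553, 2885 and 3076 CPM with EGLN3. Its ratio to MT-ND1, which lies next to the ribosomal RNA genes, was 1.35, 0.976 and 0.845 in controls and 0.656, 1.13 and 1.29 with EGLN3. These ratios overlapped between groups (difference of mean log2 ratios -0.07, exact permutation p = 0.9, n = 3 each).

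Sorting by the library rather than by the plasmid made this pattern plain. The first principal component of the 15696 tested nuclear genes, computed without any mitochondrial gene, held 70.1% of their variance. The control scores on it were -36.1, 11.6 and 34.4 and the EGLN3 scores 59.3, -23.3 and -45.9, so both groups spread over both sides. Among EGLN3 libraries the score fell as the EGLN3 level rose (481.4, 1640 and 1717 CPM), and the lowest was the library labelled 5 days. Controls had 0.565 to 0.702 CPM of EGLN3 and spread as well. The part of EGLN3 level or time with plasmid in this axis was not tested. Over the 6 libraries, 11 of 13 protein-coding members and both ribosomal RNAs had a positive Pearson's r between log2 CPM and this axis. MT-ND4L and MT-ND5 had negative ones, at -0.957 and -0.849 (Spearman's rho -0.886 for both). A family of 19 relations was computed, over these 15 genes and 4 shares of counts. After Benjamini-Hochberg adjustment 11 of the 15 genes passed by Pearson's r and 9 by Spearman's rho (exact permutation of pairings), MT-ND4L by the first only and MT-ND5 by neither (adjusted permutation p = 0.0211 and 0.0739 for r, 0.0576 for rho of both).

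**Figure D2:**
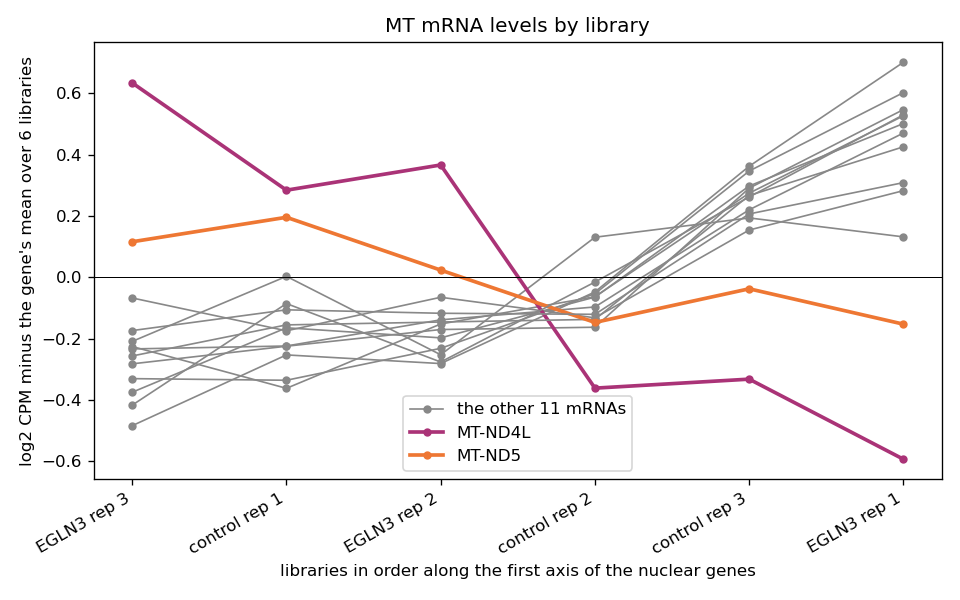
Log2 CPM of the 13 mitochondrial messengers, each minus its mean over 6 libraries (vertical axis), with libraries ordered along the first principal component of the nuclear genes (horizontal axis). The grey lines are 11 messengers, all with a positive correlation with the axis, while MT-ND4L in purple and MT-ND5 in orange run downward.

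By Pearson's r, MT-CO2 and MT-ND3 followed the axis most closely among the positive ones, while MT-ND1, MT-ND2 and MT-ND4 had a Spearman's rho of 1 (adjusted permutation p = 0.0176). MT-CO2 had 4295, 5222 and 6891 CPM in controls and 8227, 4616 and 4311 CPM with EGLN3 (Pearson's r 0.975, adjusted permutation p = 0.0176; Spearman's rho 0.943, adjusted p = 0.0352). Its r was 0.984 without the 2 libraries farthest from the median of the axis, control replicate 3 and EGLN3 replicate 1. Both lie at the high end of the axis. MT-ND3 had 1107, 1277 and 1696 CPM in controls and 2145, 1086 and 943.6 CPM with EGLN3, with an r of 0.974 (adjusted permutation p = 0.0176; Spearman's rho 0.943, adjusted p = 0.0352) and of 0.92 without those 2 libraries. MT-CO1 was different, since its r of 0.838 (adjusted permutation p = 0.0739; Spearman's rho 0.714, adjusted p = 0.152) turned to -0.226 without them. MT-RNR2 fell from 0.763 to 0.077 and MT-CYB from 0.902 to 0.442. The other genes with a positive r stayed at 0.676 (MT-ATP8) or more without these 2 libraries. MT-ND4L stayed at -0.957 and MT-ND5 was at -0.923 without them. Within a group there are 3 libraries, too few for a correlation. Levels and axis share each library's scaling and depth, and the number of genes with a count, between 23890 in EGLN3 replicate 1 and 25968 in control replicate 1, differed along with them. The part of depth or RNA quality in these relations was not tested.

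By their medians, the messengers varied more between libraries than abundant nuclear genes did, as a description. The highest over the lowest CPM of a messenger ran from 1.27 for MT-ND5 to 2.34 for MT-ND4L, with a median of 1.78 over the 13. Over 2087 nuclear genes with a mean of at least 100 CPM, a level that MT-ATP8 did not reach, the median was 1.49. EGLN3 replicate 1 was the highest library for 10 of the 13, and EGLN3 replicate 3 the lowest for 7. The GC content of the 13 genes was between 39.6% and 47.7%.

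Mitochondrial genes as a whole took 5.25%, 5.35% and 6.48% of all counts in controls, and 6.99%, 5.71% and 5.57% with EGLN3. Control replicate 3 and EGLN3 replicate 1 held the highest shares, and the groups overlapped. The mean was 5.7 ± 0.684% in controls and 6.09 ± 0.786% with EGLN3 (SD, n = 3 each), a difference of 0.393 percentage points (exact permutation test, two-sided, p = 0.5, where 3 against 3 cannot go below 0.1). Without EGLN3 replicate 1 the difference was -0.0592. Wilson 95% intervals of these shares were at most 0.0123 percentage points to either side and cover counting error only. In bulk RNA, fewer mitochondria, fewer copies of their DNA and less RNA per copy cannot be told apart. Across the 6 libraries the share had an r of 0.838 with the nuclear axis (adjusted permutation p = 0.0739) and a rho of 0.714 (adjusted permutation p = 0.152). Without control replicate 3 and EGLN3 replicate 1, r was -0.223. These 2 are the highest on the axis, at 34.4 and 59.3. Leaving them out keeps only scores from -45.9 to 11.6, and a narrower range can by itself weaken r.

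**Figure D3:**
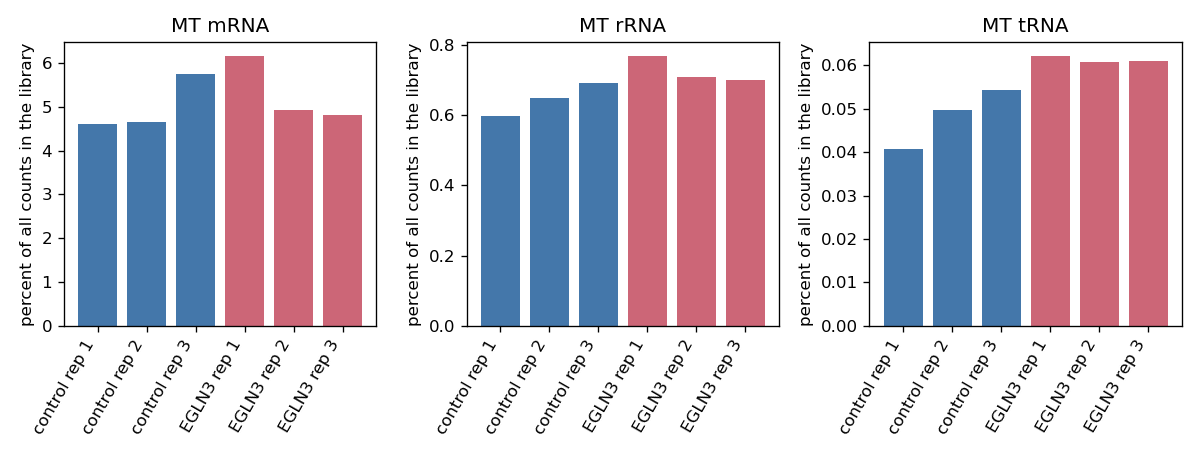
Percent of all counts of a library in mitochondrial messengers, ribosomal RNAs and transfer RNAs (3 panels, each axis from 0), with 1 bar per library, control in blue and EGLN3 in red. Messenger shares overlap between groups, while the lowest EGLN3 library lies just above the highest control for ribosomal RNA (0.701% against 0.691%) and transfer RNA (0.0608% against 0.0544%).

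The 3 classes were compared in the same way, each on its own. Messengers made up 87.8%, 86.9% and 88.5% of the mitochondrial counts in controls and 88.1%, 86.5% and 86.3% with EGLN3, so they set the total share. Ribosomal RNAs took 0.598%, 0.65% and 0.691% of all counts in controls and 0.77%, 0.711% and 0.701% with EGLN3, and these groups did not overlap. The means were 0.646 ± 0.0468% and 0.727 ± 0.0372% (SD, n = 3 each; exact permutation p = 0.1, the smallest this design allows). Transfer RNAs took 0.0408%, 0.0498% and 0.0544% in controls and 0.0622%, 0.0608% and 0.0612% with EGLN3, again without overlap (exact permutation p = 0.1, n = 3 each). As neither class overlapped between groups, leaving out any 1 library could not turn the direction of these differences, so that step adds nothing here. As parts of the mitochondrial counts, all 3 classes overlapped between groups (exact permutation p = 0.3 for messengers, 0.4 for ribosomal and 0.2 for transfer RNAs, n = 3 each). By CPM of single genes, 0 of 2 ribosomal RNAs and 3 of 15 tested transfer RNAs did not overlap, beside 6.26% of all tested genes. MT-TN alone held 25802 of the 53091 transfer RNA counts.

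The large ribosomal RNA was counted far more often than the small one. MT-RNR2 (MT:1671-3229) had 5153, 5649 and 6137 CPM in controls and 7023, 5927 and 5856 CPM with EGLN3. MT-RNR1 (MT:648-1601) had 677.8, 964.7 and 1020 CPM in controls and 1367, 845.1 and 774 CPM with EGLN3. On this scale both genes overlapped between groups. Per length, MT-RNR2 was 3.14 to 4.65 times MT-RNR1 over the libraries, and the log2 ratio of the 2 differed between groups by 0.01 (exact permutation p = 1, n = 3 each). Both ribosomal RNAs together had 0.12 to 0.146 counts per messenger count, with a difference of mean log2 ratios of 0.09 (exact permutation p = 0.4, n = 3 each). The labels do not say whether libraries were made from polyadenylated RNA. RN7SK, RMRP, RPPH1 and RN7SL1, abundant RNAs without a long poly(A) tail, had no count in any library. RN7SL2, another of them, had 164.1, 258.3 and 74.8 CPM in controls and 173, 58.6 and 52.3 CPM with EGLN3, and the nuclear-retained MALAT1 was at 496.8 ± 35.4 and 548.6 ± 72.6 CPM (SD, n = 3 each).

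MT-ND6, the single messenger read from the other strand, had 761, 798.9 and 968.2 CPM in controls and 1166, 666.8 and 604.9 CPM with EGLN3. For each MT-ND6 count there were 58.2, 58.3 and 60.4 counts of heavy-strand messengers in controls and 56.6, 69.6 and 74.2 with EGLN3. The groups overlapped (difference of mean log2 ratios, MT-ND6 to heavy-strand messengers, -0.17, exact permutation p = 0.4, n = 3 each). The sources used here do not state whether counting used strand, so reads from RNA antisense to MT-ND6 cannot be told from its own. Of 6 ratios within the mitochondrial transcripts, each had a Benjamini-Hochberg adjusted permutation p of 1.

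Transfer RNA counts were concentrated in a few genes annotated on the minus strand. The 22 genes held 53091 counts over all libraries, and the 8 on the minus strand took 87.5% of them. Whether counting used strand is not stated, so RNA of the other strand cannot be told apart in these counts. MT-TN, MT-TC and MT-TP, which carry asparagine, cysteine and proline, took 84.3%. Their gene sequences, from GENCODE 29 and in the sense of the transfer RNA, are given because these 3 supply most of the signal. MT-TN lies at MT:5657-5729, MT-TC at MT:5761-5826 and MT-TP at MT:15956-16023.
MT-TN: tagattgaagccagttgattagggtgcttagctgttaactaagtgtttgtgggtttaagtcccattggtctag
MT-TC: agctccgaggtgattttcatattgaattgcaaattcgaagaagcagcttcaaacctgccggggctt
MT-TP: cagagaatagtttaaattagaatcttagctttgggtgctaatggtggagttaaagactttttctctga

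MT-TN had 181.4, 270.3 and 248.8 CPM in controls and 307.5, 294.9 and 302.8 CPM with EGLN3, and its groups did not overlap. MT-TC had 85.1, 99.5 and 138.4 CPM in controls and 183.7, 118.9 and 118.1 CPM with EGLN3, with overlap. MT-TP had 60.3, 70.5 and 72.5 CPM in controls and 89, 71 and 73.5 CPM with EGLN3, with overlap. By contrast MT-TA, next to MT-TN on the same strand, held 4 to 12 counts a library. The 7 transfer RNAs that failed the filter on low counts, MT-TF, MT-TQ, MT-TW, MT-TA, MT-TS1, MT-TD and MT-TK, had between 0 and 17 counts in a library. Transfer RNAs are shorter than most library fragments, so counts on them can come from longer precursor RNA, which these values do not separate.

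In the comparison of EGLN3 with control, 0 of the 30 mitochondrial genes that passed the filter on low counts were called (edgeR quasi-likelihood test, adjusted p under 0.05), and each had an adjusted p of 0.9999. All 13 protein-coding genes, both ribosomal RNAs and 15 of 22 transfer RNAs were tested. Over all 15726 tested genes, 1 was called, EGLN3, or 0.00636%. At an unadjusted p under 0.05 there was 1 mitochondrial gene by edgeR, MT-TS2, beside 174 of all 15726 tested genes. DESeq2 put 2 mitochondrial genes under this limit, called 0 mitochondrial genes after adjustment and called 1 gene in all. The median log2 fold change of the 13 messengers was 0.03, with 9 positive, beside 0.01 over all tested genes.

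**Figure D4:**
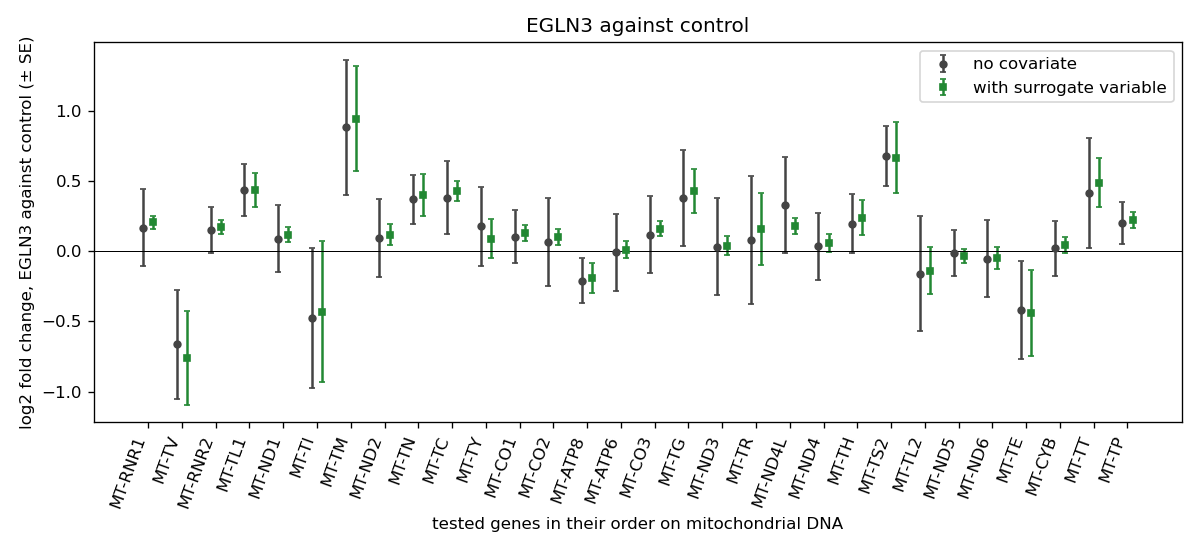
Log2 fold change of EGLN3 against control with its SE (vertical axis) for the 30 tested mitochondrial genes in their order on mitochondrial DNA. Circles are the fit without a covariate, in which 0 genes were called, and squares the fit with a surrogate variable, in which MT-RNR1, MT-RNR2, MT-TL1, MT-TC and MT-TP were called.

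By complex, the log2 fold changes of complex IV were 0.10 (SE 0.19) for MT-CO1, 0.06 (SE 0.31) for MT-CO2 and 0.12 (SE 0.27) for MT-CO3. For complex III, MT-CYB was at 0.02 (SE 0.20). In ATP synthase, MT-ATP6 was at -0.01 (SE 0.27) and MT-ATP8 at -0.21 (SE 0.16). Complex I ran from -0.05 (SE 0.28) for MT-ND6 and -0.01 (SE 0.16) for MT-ND5 to 0.33 (SE 0.34) for MT-ND4L. MT-ND1, MT-ND2, MT-ND3 and MT-ND4 lay at 0.09, 0.09, 0.03 and 0.03. MT-RNR1 and MT-RNR2 were at 0.17 (SE 0.27) and 0.15 (SE 0.16). In 11 of the 13 messengers the sign turned when 1 or another library was left out, so a direction for single messengers cannot be given. MT-ND4L stayed positive and MT-ATP8 negative in each of the 6 fits without 1 library.

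Transfer RNAs leaned upward without passing, with 11 of 15 positive and a median of 0.20. MT-TN, MT-TL1 and MT-TS2 had groups that did not overlap in CPM, 3 of 30 tested mitochondrial genes, beside 6.26% of all tested genes. MT-TL1, a leucine transfer RNA, had 15.3, 10.2 and 15.1 CPM in controls and 18.5, 18.7 and 17.8 CPM with EGLN3 (log2 fold change 0.44, SE 0.19). MT-TS2, a serine transfer RNA, had 1.63, 1.72 and 1.51 CPM in controls and 2.37, 2.79 and 2.62 CPM with EGLN3 (0.68, SE 0.21; edgeR unadjusted p = 0.0167). It rests on 24 to 47 counts a library. MT-TN was at 0.37 (SE 0.17). The other tested transfer RNAs ran from -0.66 (SE 0.39) for MT-TV, on 9 to 34 counts a library, to 0.88 (SE 0.48) for MT-TM, on 8 to 27. MT-TI, MT-TE and MT-TL2 were the other negative ones, at -0.48, -0.42 and -0.16.

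A fit with an added covariate gave a different count for the non-coding members. With 1 surrogate variable estimated on nuclear genes alone, 5 of 30 mitochondrial genes were called higher and 0 were called lower. Over all tested genes this fit called 4.53% in either direction (713 of 15726, 169 of them higher). Both ribosomal RNAs were among them, MT-RNR1 at 0.21 (SE 0.05; edgeR, adjusted p = 0.012) and MT-RNR2 at 0.17 (SE 0.05; edgeR, adjusted p = 0.0365). The others were MT-TC at 0.43 (SE 0.07; adjusted p = 0.00286), MT-TP at 0.22 (SE 0.06) and MT-TL1 at 0.43 (SE 0.12). None of the 13 messengers was called, 10 were positive, and their median was 0.06. Since these 6 libraries also supplied the variable, which the fit takes as given, the SEs and p-values may be too small. MT-TC was called in each of the 6 fits that left out 1 library, MT-RNR1 in 3 and MT-RNR2 in 2 of them. Without EGLN3 replicate 3, whose label gives another time with the plasmid, MT-TC was the 1 mitochondrial gene called, with 82 genes in all. Without control replicate 3 there were 11 mitochondrial calls. The number of genes called in all also differed widely between these fits, so these counts are not read as a result about the members.

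Nuclear copies of mitochondrial genes can take reads from them. The table lists 407 such copies by name, 331 without a count in any library, and 3 held 98.4% of the copies' counts: MTATP6P1, MTND2P28 and MTCO1P12, all on chromosome 1. Their sequences were 98.5%, 98.2% and 98.6% identical to MT-ATP6, MT-ND2 and MT-CO1. In the stretch with the most differences between MT-ND2 (MT:5319-5498) and MTND2P28 (chr1:630489-630668, plus strand), 7 of 180 bases differ. It is printed, from GENCODE 29 on GRCh38, to show how little tells the 2 apart; capitals mark the differing bases.
MT-ND2: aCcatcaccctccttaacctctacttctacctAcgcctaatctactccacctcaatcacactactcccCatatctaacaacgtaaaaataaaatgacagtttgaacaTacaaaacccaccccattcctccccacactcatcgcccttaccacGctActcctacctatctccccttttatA
MTND2P28: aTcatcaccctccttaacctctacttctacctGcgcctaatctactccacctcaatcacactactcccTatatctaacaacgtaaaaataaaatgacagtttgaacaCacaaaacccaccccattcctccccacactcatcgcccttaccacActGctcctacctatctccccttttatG

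MTND2P28 was a varying percentage of MT-ND2, lowest in EGLN3 replicate 1, the library where MT-ND2 was highest. It held 2512, 1819 and 2111 counts in controls and 1769, 2472 and 2413 with EGLN3, where MT-ND2 held 39464, 37542 and 52287, and 59424, 40227 and 35339. As a percentage of MT-ND2 these counts were 6.37, 4.85 and 4.04 in controls and 2.98, 6.15 and 6.83 with EGLN3. MTATP6P1 kept a nearly even percentage of MT-ATP6, between 11.7 and 13.2 in the 6 libraries. MTCO1P12 had between 0.175 and 0.373 percent of the counts of MT-CO1. None of the 7 tested copies was called (edgeR). The sources used here do not state how reads matching both a gene and its copy were assigned, and the part of that step in these values was not tested.

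**Figure D5:**
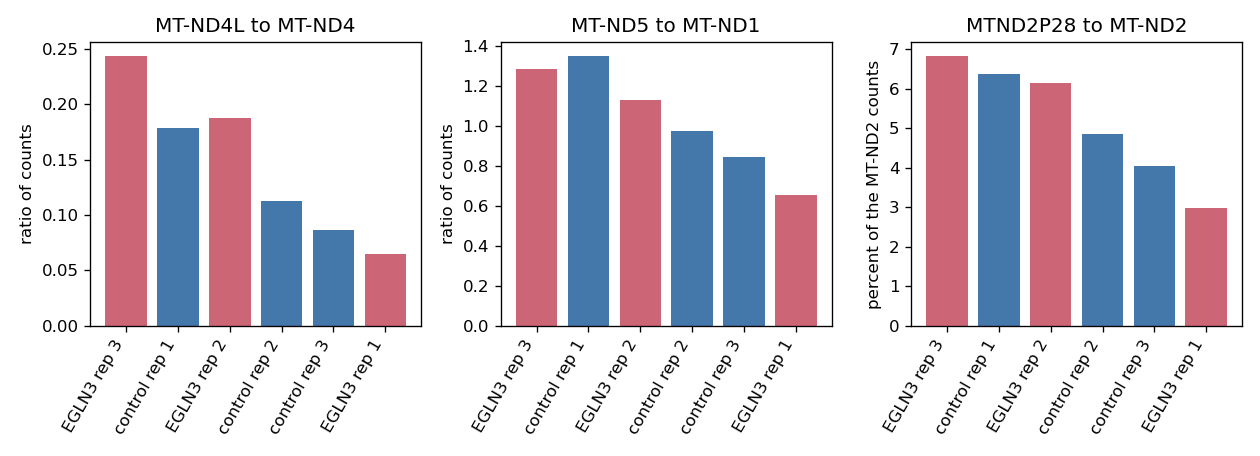
Ratio of counts of MT-ND4L to MT-ND4 and of MT-ND5 to MT-ND1, and counts of MTND2P28 as a percentage of MT-ND2 (3 panels, each axis from 0), with libraries ordered along the first principal component of the nuclear genes, control in blue and EGLN3 in red. EGLN3 replicate 1, at the right end, is lowest in each panel, with ratios of 0.065 and 0.656 and a percentage of 2.98.

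The nuclear genes that make, mature and use these transcripts did not pass as single genes. Of 25 genes of mitochondrial transcription and DNA upkeep, 0 were called, 12 were positive and the median log2 fold change was -0.05. POLRMT, the mitochondrial RNA polymerase, had 86.5, 97 and 86.1 CPM in controls and 82.3, 70.7 and 65.4 CPM with EGLN3. These groups did not overlap (log2 fold change -0.30, SE 0.14; edgeR unadjusted p = 0.0679). MTERF1, which binds within MT-TL1 and ends transcription there in vitro, had 12.6, 14.6 and 15.5 CPM in controls and 18.3, 16.5 and 17.9 CPM with EGLN3 (0.30, SE 0.14; edgeR unadjusted p = 0.0704).

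Of 35 genes of mitochondrial RNA processing, modification and decay, 0 were called and the median was 0.04. FASTKD1 averaged 30.4 ± 1.19 CPM among control libraries against 35.1 ± 1.29 CPM for EGLN3 (SD over 3 libraries each; log2 fold change 0.21, SE 0.12), and GTPBP3, a transfer RNA modifier, was at -0.25 (SE 0.15). Of 14 translation factors 0 were called, with a median of 0.05, MTRF1 at 0.20 (SE 0.16) and MPV17L2 at -0.22 (SE 0.25). Of 11 regulators of mitochondrial biogenesis 0 were called, with a median of 0.10. GABPB1, a subunit of the GABP (NRF2) transcription factor of respiratory genes, had 29, 29.6 and 29.1 CPM in controls and 34.5, 35.3 and 35 CPM with EGLN3, without overlap (0.26, SE 0.11; edgeR unadjusted p = 0.0571). ESRRA was at -0.19 (SE 0.19). Of 38 nuclear-encoded subunits of complexes I, III, IV and V, 0 were called, 26 were negative and the median was -0.04, with ATP5F1A at -0.17 (SE 0.15) and NDUFV1 at -0.29 (SE 0.30). In the fit with the surrogate variable, which called 4.53% of all tested genes, 3 of these 38 subunits were called: COX7B was higher at 0.20 (SE 0.06), and CYC1 and NDUFV1 were lower at -0.23 (SE 0.05) and -0.27 (SE 0.05). Of the 25 transcription and upkeep genes that fit called 2, both lower, POLRMT at -0.29 (SE 0.06) and the mitochondrial topoisomerase TOP1MT at -0.24 (SE 0.07). It called 1 of the 35 processing genes, GTPBP3 at -0.23 (SE 0.07), 1 of the 11 regulators, GABPB1 at 0.26 (SE 0.07), and 0 of the 14 translation factors. TOP1MT, COX7B and CYC1 are named after their values were seen.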

How the data were processed

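RNA from 6 libraries of NCI-N87 cells, 3 with EGLN3 and 3 with the empty plasmid, was measured by RNA-seq. The authors deposited whole-number read counts per gene. Among tools, DESeq2 1.20.0, the aligner HISAT2 2.0.5 and the counter featureCounts 1.5.0-p3 appear, with hg38 as build, per the submitters' processing notes. For annotation, strand and reads that match 2 places, the sources used here give nothing. The deposited FPKM values were not used.

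Counts were tested over all genes with edgeR 4.0.16 (filterByExpr, TMM scaling, robust quasi-likelihood fit, Benjamini-Hochberg adjustment, threshold 0.05), and the code was tested on simulated data. Shares and ratios were compared with two-sided exact permutation tests. Alternatives were DESeq2 1.42.0, other scalings and filters, a replicate block, 1 surrogate variable (sva 3.50.0) and leaving out each library. The members and gene lists were chosen with earlier results of these data known. Named genes are EGLN3, the mitochondrial genes, the 3 nuclear copies with most counts and, of each related list, members called or else the 2 with the smallest unadjusted p; transfer RNAs that failed the filter are named to account for all members. Depth was 15157265 to 16767383 counts a library.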

Additional observations from a re-analysis of the deposited data

How the results depend on the processing

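No mitochondrial gene was called by DESeq2, or by edgeR under any alternative scaling or filter, under the block or without any 1 library. Under the block, and without control replicate 1, 2 or 3 or EGLN3 replicate 2 or 3, edgeR called 0 genes in all. In those fits EGLN3 itself was not called, so they cannot tell whether a mitochondrial gene differs. With the surrogate variable 5 mitochondrial genes were called. That fit called 713 genes in all and put MT-ATP6 at 0.010. Scaling to the sum of mitochondrial messengers put MT-CO2 at -0.028, MT-ND3 at -0.080, MT-ND4 at -0.044 and MT-CYB at -0.048. The correlation of the mitochondrial share with the nuclear axis was 0.922 (permutation p = 0.00833) with the log2 CPM of the mitochondrial sum, and 0.859 (permutation p = 0.0472) with an axis from the 2000 most variable nuclear genes; without the 2 farthest libraries these were 0.70 and -0.192. The causes were not tested.

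Same-numbered control and EGLN3 libraries did not deviate together (correlations -0.793, -0.176 and -0.674), and no library correlated best with its own number. Deviations were taken from each group's mean, and the first nuclear axis held most of the variance. These correlations therefore cannot decide whether the numbers denote pairs. With the replicate block, 0 genes were called in all and MT-ND3 was at -0.048. The difference in mitochondrial share was 0.393 points (exact permutation p = 0.75, n = 3 pairs).

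Leaving out 1 library, edgeR called between 0 and 1 genes. The difference in share ranged from -0.0592 to 0.787 points for all mitochondrial genes and from -0.131 to 0.667 for messengers. The log2 ratio differences ranged from -0.103 to 0.176 for MT-RNR2 to MT-RNR1, -0.125 to 0.829 for MT-ND4L to MT-ND4 and -0.268 to 0.219 for MT-ND5 to MT-ND1. Without a change of sign they ranged from 0.0362 to 0.161 for ribosomal RNA to messengers, -0.285 to -0.0906 for MT-ND6 to heavy-strand messengers and -0.299 to -0.031 for MT-ATP8 to MT-ATP6; the nearest to 0 were without control replicate 3, EGLN3 replicate 3 and EGLN3 replicate 1. Log2 fold changes ranged from -0.12 to 0.32 for MT-RNR1, -0.15 to 0.23 for MT-ND1, -0.20 to 0.27 for MT-ND2, -0.41 to 0.25 for MT-ND3, -0.19 to 0.19 for MT-ND4, -0.074 to 0.090 for MT-ND5 and -0.39 to 0.12 for MT-ND6. They ranged from -0.0099 to 0.21 for MT-CO1, -0.28 to 0.26 for MT-CO2, -0.15 to 0.30 for MT-CO3, -0.13 to 0.14 for MT-CYB and -0.31 to 0.16 for MT-ATP6. For transfer RNAs they were -0.81 to 0.13 for MT-TI, -0.27 to 0.69 for MT-TR and -0.68 to 0.062 for MT-TL2. Without EGLN3 replicate 1, 11 of the 30 genes changed sign, and without control replicate 1, 9 did. In the surrogate variable fit, leaving out 1 library, which was chosen as an alternative after seeing the data, gave between 1 and 11 mitochondrial calls and between 82 and 998 over all genes.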
